A study of Procambarus virginalis with 3 samples.

Results

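Very broad accessible blocks in the hemocytes of the marbled crayfish (*Procambarus virginalis*) were taken from a peak list of chromatin accessibility and were chosen by length alone. A block is a peak whose end minus its start is 5000 bp or more, and 332 of the 89155 peaks, on 328 scaffolds, met this limit. The list comes from ATAC-seq of hemocytes from 3 independent animals, wild catches from lake Reilingen, which form 1 group with neither a control nor a treatment. About 500 µL of hemolymph was drawn per animal, and 50000 washed hemocytes were exposed to the transposase for 20 min. The 3 libraries had been pooled before deposition, so animals cannot be compared and no difference below was tested. Medians have 95% intervals from order statistics and shares have exact 95% binomial intervals. Both cover counting error over peaks only, and peaks of 1 scaffold or of 1 repeated sequence are not independent.

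In ATAC-seq, the Tn5 transposase places sequencing adapters mainly into DNA that is free of tightly packed nucleosomes. Promoters and enhancers usually appear as short accessible sites between nucleosomes, whereas long accessible stretches are known in mammals from clustered enhancers and from the bodies of strongly transcribed genes. Hemocytes are the circulating cells of crustaceans, and they act in phagocytosis, clotting and the melanization response to pathogens. The list names scaffolds of a draft assembly whose version is not stated in the sources used here. Genes, sequence and hemocyte marker genes were not analysed here, so no block could be assigned to a gene and the labelled cell type could not be checked against its markers.

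The blocks made up 0.372% of all peaks (interval 0.333 to 0.415%), but they covered 2300 kb, which was 7.53% of the total covered length of 30536 kb. When fold enrichment was multiplied by length and summed over all peaks, the blocks contributed 16.2% of the sum. Fold enrichment is the fragment pileup relative to the background, with a pseudocount of 1 on both, averaged along the peak. The 3424 peaks of 1 to under 5 kb, which served as the comparison, made up 19.2% of the covered length and 29.2% of the sum. A narrower comparison with the 790 peaks of 2 to under 5 kb was added after the values had been seen, and it gave 7.83% and 15.8%. The background behind the list, assumed to be the same for all peaks, was equivalent to 3.88 fragments per position. A pileup of 11 fragments then gave the most frequent fold of 2.46. At this background, the mean overlap in a block had a median of 77.0 fragments, with a lowest value of 15.8 and a highest of 1368, against a median of 40.9 in the peaks of 1 to under 5 kb.

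Block lengths were concentrated around 6 kb and did not simply decline from the limit. The median length was 6127.5 bp (interval 6065 to 6183 bp, interquartile range 5793.5 to 6863.5 bp), and the range was 5003 to 29372 bp. In classes of 400 bp, 33 peaks were 4800 to 5199 bp long, 46 were 5200 to 5599 bp, 54 were 5600 to 5999 bp, 108 were 6000 to 6399 bp and 19 were 6400 to 6799 bp. The class of 6000 to 6399 bp, written as 6.0 to 6.4 kb below, therefore exceeded both of its neighbours. In finer classes of 200 bp, the count was 33 for 5800 to 5999 bp, 70 for 6000 to 6199 bp, 38 for 6200 to 6399 bp and 12 for 6400 to 6599 bp. Smaller local maxima lay at 5400 to 5599 bp with 32 blocks, against 14 and 21 in the neighbouring classes, and at 6800 to 6999 bp with 12 blocks, against 7 and 9. Since the length served as the selection criterion, these counts describe the list and were not tested.

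**Figure D1:**
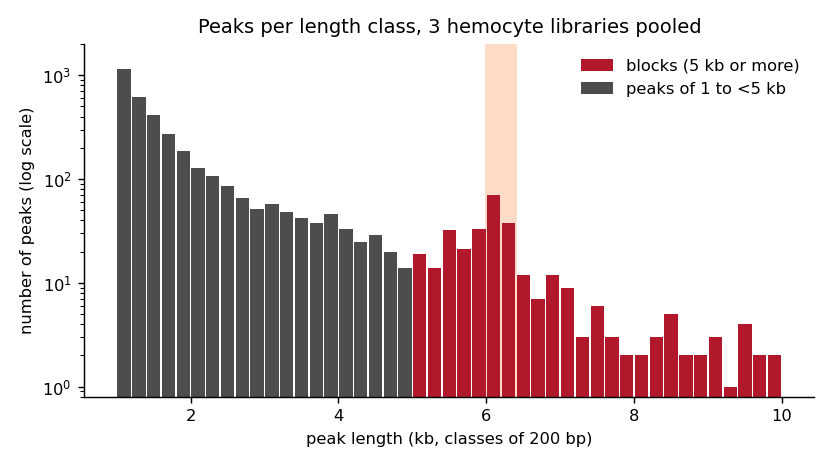
Number of peaks (log axis) in classes of 200 bp by peak length in kb, with blocks in red, peaks of 1 to under 5 kb in grey and the class of 6.0 to 6.4 kb shaded. Counts fell from 1143 in the first class to 14 in the last class below 5 kb, increased to 70 at 6000 to 6199 bp and dropped to 12 at 6400 to 6599 bp, and the 25 blocks of 10 kb or more lie outside the axis.

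The 108 blocks of 6.0 to 6.4 kb lay on 108 different scaffolds. No single length accounted for the class, because windows of 50 bp held 22 blocks at 6000 to 6049 bp, 16 at 6050 to 6099 bp, 20 at 6100 to 6149 bp, 12 at 6150 to 6199 bp and 15 at 6200 to 6249 bp. The fold enrichment of the class ranged from 5.03 to 48.7, with a median of 15.1 and an interquartile range of 7.57 to 21.9. The 224 blocks of other lengths had a median of 16.2 and a wider interquartile range of 6.65 to 27.8. A fold of 50 or more was found for 0 of the 108 blocks, which allows a share of up to 3.36%, and for 22 of all 332 blocks (6.63%). Among all peaks of the list this share was 1.17%. The strongest members of the class were scaffold93914 at 35701 to 41976 (fold 48.7), scaffold52053 at 14033 to 20172 (43.2) and scaffold5565 at 75212 to 81571 (38.9). The weakest were scaffold50190 at 24806 to 31179 (5.03), scaffold3106 at 101161 to 107373 (5.13) and scaffold61451 at 11487 to 17486 (5.25). Blocks of nearly the same length thus differed strongly in fold enrichment. The 12 blocks of 6000 to 6019 bp ranged from 5.25 to 26.5, and the 12 blocks of 6140 to 6159 bp ranged from 6.23 to 43.2.

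A further 51 blocks reached 8 kb or more and held 7.52% of the sum of fold times length over all peaks. Of these, 26 were 8 to under 10 kb long (median fold 38.5), 17 were 10 to under 15 kb (18.3), 6 were 15 to under 20 kb (15.6) and 2 were longer. The longest block covered 29372 bp of scaffold64390 at 15302 to 44673 and had a fold of 10.3, below the block median. The next, on scaffold15282 at 17039 to 40309 (23271 bp), had a fold of 271.5 and was the second strongest of all blocks. It was followed by scaffold273783 at 399 to 20193 (19795 bp, fold 4.38), scaffold175695 at 2 to 17813 (17812 bp, 6.0) and scaffold65667 at 94 to 17425 (17332 bp, 6.47). Among the 5 longest blocks, 3 were therefore weak and 1 was extreme in strength. A set of 4 blocks, chosen after their values were seen, had lengths within 16 bp of each other. They were scaffold19275 at 58458 to 66865 (8408 bp, fold 96.2), scaffold55371 at 1924 to 10332 (8409 bp, 253.3), scaffold45910 at 31733 to 40142 (8410 bp, 82.6) and scaffold8445 at 44011 to 52434 (8424 bp, 44.8). All 4 were above the upper quartile of all blocks.

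At the limit of 5000 bp there was no visible step in strength. The 3 shortest blocks were scaffold84003 at 25311 to 30313 (5003 bp, fold 6.02), scaffold339694 at 2341 to 7357 (5017 bp, 13.7) and scaffold8003 at 16689 to 21706 (5018 bp, 10.03). The 3 longest peaks below the limit were scaffold301553 at 3833 to 8814 (4982 bp, fold 29.3), scaffold87039 at 9820 to 14792 (4973 bp, 5.15) and scaffold33161 at 73319 to 78262 (4944 bp, 7.95).

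The spread of fold enrichment was examined next. Fold and length were both derived from 1 pileup and 1 detection limit, so these values are a description of the selected peaks. The median fold of the blocks was 15.97 (interval 13.1 to 17.96), against 8.57 in the peaks of 1 to under 5 kb and 13.2 in those of 2 to under 5 kb. Measured as the ratio of the quartiles, the spread was not wider in the blocks than in either comparison class. Their upper quartile of 25.6 was 3.61 times the lower quartile of 7.08, and this ratio was 3.75 in the peaks of 1 to under 5 kb and 4.16 in those of 2 to under 5 kb. Extreme strength was not confined to the blocks either, since the strongest block ranked 18 among all peaks. A fold of 100 or more was found for 4 blocks (1.2%), against 39 of the peaks of 1 to under 5 kb (1.14%). The number was 17 among those of 2 to under 5 kb (2.15%) and 230 among all peaks (0.258%). Spearman's rho of length and fold was 0.235 over the 332 blocks and 0.181 over the 3424 shorter peaks, where the points share the libraries, the background and the detection limit.

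The form of the fold distribution differed from that of the shorter peaks. Among blocks, the fold had a lower maximum between 6 and 8, a sparse interval from 8 to under 14 and a broad upper maximum from 14 to under 30. The lower maximum held 59 blocks, or 17.8% (interval 13.8 to 22.3%), against 12.3% (11.2 to 13.4%) of the peaks of 1 to under 5 kb and 9.75% (7.77 to 12.03%) of those of 2 to under 5 kb. The sparse interval held 41 blocks, or 12.3% (9.01 to 16.4%), against 20.2% (18.9 to 21.6%) and 17.5% (14.9 to 20.3%). It was not sparse throughout. A fold of 9 to under 10 was found for 4 blocks (1.2%), against 149 peaks (4.35%) and 25 peaks (3.16%). At 10 to under 12 the shares were alike, with 19 blocks (5.72%), against 6.16% and 5.70%. At 12 to under 14 there were 8 blocks (2.41%), against 5.29% and 4.68%. The upper maximum held 126 blocks, or 38.0% (32.7 to 43.4%), against 21.0% (19.7 to 22.4%) and 29.9% (26.7 to 33.2%). A rise in this range was also present in the peaks of 2 to under 5 kb. Their share was 5.95% at a fold of 16 to under 18, against 3.92% at 14 to under 16. At the low end, a fold of 3 to under 6 was found for 49 blocks, or 14.8% (11.1 to 19.0%), against 31.4% (29.8 to 33.0%) and 22.5% (19.7 to 25.6%). These limits were set after the distribution had been seen.

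**Figure D2:**
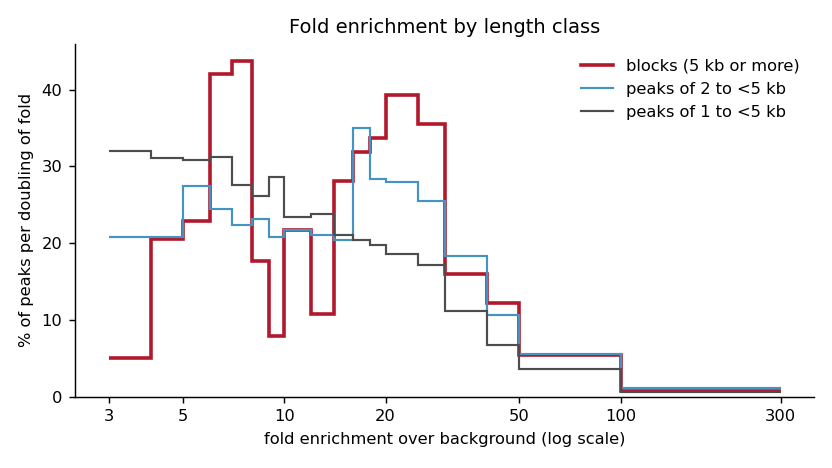
Share of peaks per doubling of fold enrichment (log axis of fold) in the blocks (red), peaks of 2 to under 5 kb (blue) and peaks of 1 to under 5 kb (grey). The blocks had maxima between a fold of 6 and 8 and between 14 and 30, with few blocks between except at 10 to under 12. The peaks of 1 to under 5 kb declined over most of the range. The peaks of 2 to under 5 kb also rose at a fold of 16 to under 18.

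For further description, the blocks were divided at a fold of 9, also after the distribution had been seen. The 118 blocks below this value (35.5%) had a median fold of 6.31 and the 214 others a median of 22.4. Below the same value lay 51.6% of the peaks of 1 to under 5 kb and 81.7% of all peaks. Both sets of blocks had similar lengths, with medians of 6061 and 6147 bp. The weaker blocks covered 797 kb but held 1.34% of the sum of fold times length over all peaks, against 14.8% for the stronger blocks. The weakest blocks were scaffold73847 at 1189 to 8361 (fold 3.44), scaffold23766 at 49025 to 54464 (3.73), scaffold57761 at 8448 to 17347 (3.85), scaffold116486 at 4331 to 9413 (3.89) and scaffold229408 at 631 to 8990 (3.97). Their mean overlap of 15.8 to 18.4 fragments was little above the 11 fragments of the most frequent fold in the list. The strongest blocks were scaffold336218 at 24922 to 39731 (14810 bp, fold 280.4), scaffold15282 (271.5), scaffold55371 (253.3), scaffold87263 at 13588 to 18758 (5171 bp, 113.8) and scaffold19275 (96.2). The first 3 of these had 1236 to 1368 overlapping fragments on average and stood apart from the fourth by a factor of more than 2.

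**Figure D3:**
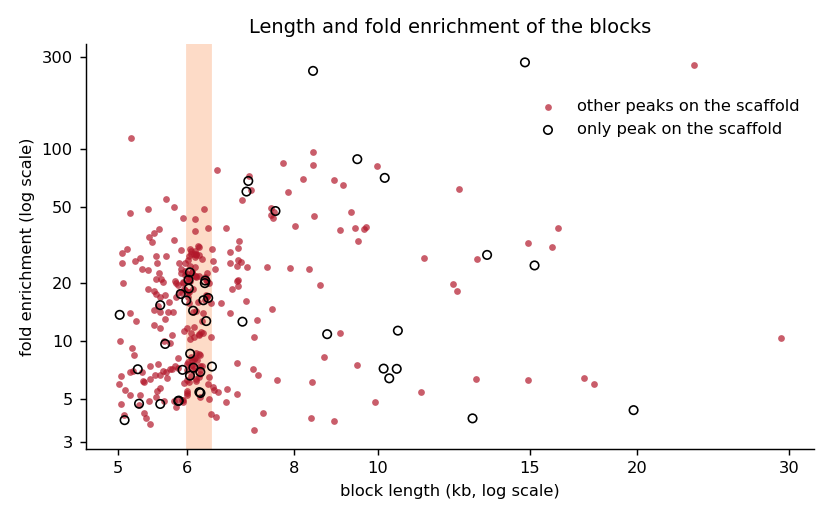
Length in kb and fold enrichment (both log axes) of the 332 blocks, with open circles for the 45 blocks that were the only peak on their scaffold and the class of 6.0 to 6.4 kb shaded. The class spans folds of 5.03 to 48.7, and folds above 200 were found only in 3 blocks of 8.4 kb or more, on scaffold336218, scaffold15282 and scaffold55371.

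A long peak can be evenly accessible or can join several sites with lower pileup between them, and the list carries a measure of this. Both the fold and the −log10 p of a broad peak are means along its length, and −log10 p grows faster than the pileup does. An uneven peak therefore has a higher −log10 p than an even peak of the same mean fold. The ratio of the 2 values was 1.039 in the median block (interval 1.036 to 1.042), against 1.069 (1.066 to 1.071) in the peaks of 1 to under 5 kb and 1.046 (1.042 to 1.049) in those of 2 to under 5 kb. Expressed as the equivalent alternation between a high and a low level, the pileup of the median block varied by 38.7% above and below its mean, against 47.7% and 41.4%. Counting error at a single position was 11.4% of the mean in the median block, against 15.6% and 12.6%. Over all peaks of the list, most of which are short and weak, the ratio was 1.028 and the variation 25.5%. The blocks were thus more uneven than the list as a whole, but the median block was no more uneven than the median of either comparison class.

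Since unevenness depended on strength, it was compared within bands of fold. At a fold of 10 to under 20, the median variation was 36.5% in 80 blocks (interval 33.6 to 38.1%), against 44.3% (41.2 to 48.8%) in the peaks of 2 to under 5 kb and 58.5% in those of 1 to under 5 kb. At 40 to under 300 it was 45.6% in 35 blocks (38.7 to 52.4%), against 53.9% (47.5 to 59.3%) and 63.8%. At 20 to under 40, the 95 blocks and the peaks of 2 to under 5 kb were close, with 42.4% and 43.7%. At 3 to under 5 the order was turned round, with 31.5% in 29 blocks, against 28.6% in the peaks of 2 to under 5 kb and 30.9% in those of 1 to under 5 kb. The borders, where the pileup falls to the detection limit, take a larger share of a shorter peak. Their part in these differences was not tested.

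**Figure D4:**
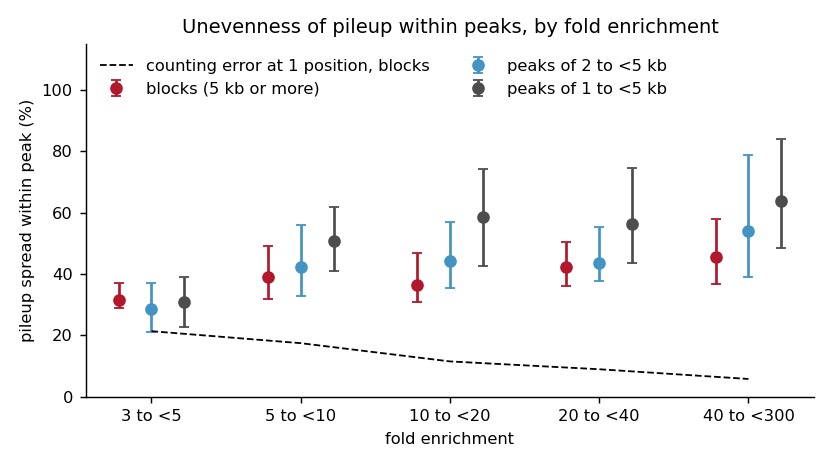
Variation of pileup within peaks, as % above and below the mean, in 5 bands of fold enrichment for blocks (red), peaks of 2 to under 5 kb (blue) and peaks of 1 to under 5 kb (grey); points are medians, bars are interquartile ranges and the dashed line is the counting error at 1 position in blocks. From a fold of 5 upwards the median of the blocks was lowest in each band, for example 36.5% against 44.3% and 58.5% at 10 to under 20.

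Individual blocks differed widely in evenness, with a lowest variation of 13.99%. The 3 strongest were among the more even ones, with a variation of 21.9% for scaffold55371, 28.7% for scaffold336218 and 32.1% for scaffold15282. Their counting error was below 3% of the mean, so most of this variation exceeded counting error. The longest block, on scaffold64390, varied by 41.8%, close to the block median. In contrast, scaffold65667 varied by 72.9%, and scaffold8003 had a ratio of 1.63, the highest in the whole list, to which no alternation of 2 levels around its mean could be fitted. The class of 6.0 to 6.4 kb had a median variation of 37.6%, which was close to that of all blocks. Within it, scaffold52053 varied by 78.1%, although its fold of 43.2 lay next to the 38.9 of scaffold5565, which varied by 33.4%.

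The surroundings of the blocks were analysed on the scaffolds. Scaffold lengths are not in the list, so the end of the last peak was used as the end of the span. The scaffolds of the blocks held 1855 peaks in all, and the median was 4 peaks per block scaffold (interquartile range 3 to 8, highest 30), against 5 (3 to 9) for the peaks of 1 to under 5 kb and 4 over all peaks. Scaffolds with 10 or more peaks held 56 blocks, or 16.9% (13.0 to 21.3%), against 22.6% (21.2 to 24.1%) of the peaks of 1 to under 5 kb and 17.4% of all peaks. At the other end, 45 blocks, or 13.6% (10.1 to 17.7%), were the only peak on their scaffold, against 10.2% of the peaks of 1 to under 5 kb and 6.84% (5.18 to 8.82%) of those of 2 to under 5 kb. Over all peaks this share was 13.25%, inside the interval of the blocks, so over all blocks neither solitary nor crowded ones stood out from the whole list. Among the 51 blocks of 8 kb or more, however, 13 were alone (25.5%, interval 14.3 to 39.6%). The span of a solitary peak is its own end, so a span limit removes solitary peaks near the scaffold start. With a span of 20 kb or more, 9 of 246 blocks (3.66%) were alone, against 108 of 2658 peaks of 1 to under 5 kb (4.06%) and 11 of 622 peaks of 2 to under 5 kb (1.77%). Among the blocks of 8 kb or more with such a span, 2 of 36 were alone (5.56%, interval 0.68 to 18.7%). The solitary blocks included scaffold336218 and scaffold55371, the strongest and the third strongest block, as well as the weak blocks on scaffold273783 and scaffold116486.

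More than 1 block was found on 4 scaffolds. On scaffold166305, blocks at 1095 to 6633 (fold 5.50) and 6928 to 18149 (11222 bp, 5.42) were separated by 294 bp and had nearly the same fold. On scaffold50190, blocks at 24806 to 31179 (5.03) and 44127 to 49660 (5.13) also resembled each other in fold, and so did those on scaffold40086 at 44486 to 49894 (23.5) and 97967 to 105880 (24.0). On scaffold19991, in contrast, the fold was 33.4 at 33600 to 39394 and 7.59 at 60526 to 66533.

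Flanking peaks within 20 kb were found for 262 blocks, or 78.9% (74.1 to 83.2%), against 81.9% of the peaks of 1 to under 5 kb. With a span of 20 kb or more, the shares were 86.2% and 85.7%. The median number of flanking peaks was 2 in both classes, with an interquartile range of 1 to 4 and a highest value of 13 for the blocks. For the 163 blocks that started at 20 kb or later, a flanking peak before the start was found for 110, or 67.5% (59.7 to 74.6%), against 71.7% of the shorter peaks. Where at least 20 kb of span followed the end, a flanking peak was found after 86 of 112 blocks (76.8%), against 75.3%. In each of these comparisons, the share in the peaks of 1 to under 5 kb lay within the interval of the blocks. Among the peaks of 2 to under 5 kb, the share with flanking peaks was 87.5% (85.0 to 89.7%) over all spans, 91.0% (88.5 to 93.1%) over spans of 20 kb or more, and 78.2% (74.0 to 82.1%) before the start. Each of these was higher than in the blocks. After the end it was 79.6%, inside the interval of the blocks (67.9 to 84.2%). Over all peaks of the list the shares were 75.7% over all spans, 79.8% over spans of 20 kb or more, 63.4% before the start and 67.7% after the end.

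The nearest neighbour was examined next. The nearest peak was less than 500 bp away for 37 blocks, or 11.1% (7.97 to 15.02%), against 18.3% (17.0 to 19.6%) of the peaks of 1 to under 5 kb and 19.0% (16.3 to 21.9%) of those of 2 to under 5 kb. Over all peaks of the list this share was 10.95%, so at this distance the blocks resembled the whole list. The shorter comparison peaks had more neighbours this close. Within 1000 bp, the share of blocks was 21.4%, against 30.99% of the peaks of 1 to under 5 kb and 21.8% of all peaks. The smallest gap in the list was 257 bp, and sites closer to each other than this appear as 1 peak. A neighbour that was absorbed when a block formed could therefore not be counted. Among the stronger blocks, 17 of 214 (7.94%) had a gap of less than 500 bp, against 20 of 118 (16.9%) of the blocks with a fold below 9. In the class of 6.0 to 6.4 kb the number was 8 of 108 (7.41%). In contrast, the 38 blocks of 8 kb or more with a neighbour had a median gap of 1002.5 bp (595 to 1652 bp), against 2648 bp (2051 to 3633 bp) for the 287 blocks of any length with a neighbour. Among peaks with a neighbour, this median was 2340 bp (2113 to 2607 bp) for 1 to under 5 kb and 4080 bp (4001 to 4147 bp) over the whole list. The other 13 of the 51 blocks of 8 kb or more were alone on their scaffold.

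The flanking peaks were short and weak. The 784 different peaks within 20 kb of a block had a median fold of 4.13 (3.94 to 4.4) and a median length of 277 bp (256 to 303 bp). Around the peaks of 1 to under 5 kb, the 8038 flanking peaks had a median fold of 4.01 (3.96 to 4.05) and a median length of 263 bp (256 to 270 bp). Around those of 2 to under 5 kb, the 2310 flanking peaks had medians of 3.91 (3.81 to 4.02) and 276 bp (265 to 292 bp). A length of 1000 bp or more was found for 8.55% of the flanks of blocks (6.68 to 10.7%), against 8.76% (8.15 to 9.4%) and 10.6% (9.42 to 11.98%). All peaks of the list had medians of 4.18 and 205 bp. The flanks of blocks were thus close to ordinary peaks in strength, and in length they resembled the flanks of shorter peaks. In 674 of 788 pairs of a block and its flanking peak, or 85.5%, the flanking peak was weaker than the block, against 74.0% for the peaks of 1 to under 5 kb and 80.5% (78.9 to 82.1%) for those of 2 to under 5 kb. Among blocks with a fold of 9 or more the number was 475 of 504 pairs (94.2%). Among blocks with a fold below 9 the number was 199 of 284 pairs (70.1%). These shares depend on the fold of the blocks themselves, by which they were divided. Even the weaker blocks had a median fold of 6.31, against 4.18 in all peaks. Whether the blocks exceeded their flanks more than other peaks of the list was not tested.

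Among the blocks with the most flanking peaks, 3 are described here, and they differed in strength. On scaffold323980, the block at 33392 to 39885 (6494 bp, fold 4.05) had 13 flanking peaks with folds of 2.46 to 3.28 and lengths of 86 to 3715 bp, all on its start side. On scaffold10970, the block at 49506 to 58821 (9316 bp, 46.7) had 11 flanking peaks with folds of 2.51 to 20.8, on both sides. On scaffold72714, the block at 13087 to 22995 (9909 bp, 4.81) had 8 flanking peaks with folds of 2.46 to 6.65, again all before it. Other blocks also had 8, among them that on scaffold8003 (fold 10.03), with 1 before its start and 7 after its end. The blocks on scaffold323980 and scaffold72714 were weak peaks among other weak peaks, whereas the block on scaffold10970 exceeded the median of its flanks of 3.65 by a factor of more than 10.

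Finally, the position on the scaffold was examined. The median start was at 18897.5 bp (14643 to 24657 bp), against 22181 bp for the peaks of 1 to under 5 kb. The first 1 kb of a scaffold held 28 block starts, or 8.43% (5.68 to 11.96%), against 11.4% of the peaks of 1 to under 5 kb and 10.4% of all peaks, and the first 5 kb held 24.1% against 19.4%. Long blocks accounted for most starts at the very beginning. Of the 51 blocks of 8 kb or more, 16 started in the first 1 kb (31.4%), whereas this applied to 12 of the 281 blocks of 5000 to 7999 bp (4.27%) and to 2 of the 108 blocks of 6.0 to 6.4 kb (1.85%). A long block on a short scaffold has little room to start elsewhere. With a span of 20 kb or more, 7 of 36 blocks of 8 kb or more started there (19.4%, interval 8.19 to 36.0%), against 4.47% of all blocks. The first 4 kb held 74 block starts, or 22.3% (17.93 to 27.2%), against 17.7% of the peaks of 1 to under 5 kb and 17.9% of all peaks. At 2 to under 4 kb there were 25 blocks (7.53%), against 3.53% of the peaks of 1 to under 5 kb. From 4 to under 8 kb, 18 blocks started (5.42%, interval 3.24 to 8.43%), against 7.16% of the peaks of 1 to under 5 kb and 5.52% of all peaks. From 8 to under 12 kb there were 42 blocks, or 12.7% (9.27 to 16.7%), against 8.27% (7.36 to 9.24%) and, for the peaks of 2 to under 5 kb, 8.35% (6.52 to 10.5%). The share of all peaks there was 7.63%, below the interval of the blocks. The first 4 kb and the window from 8 to under 12 kb were among several windows of 4 kb that were examined. A preference for them was not tested. From 12 to under 16 kb the shares of 6.63% and 6.51% were alike.

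**Figure D5:**
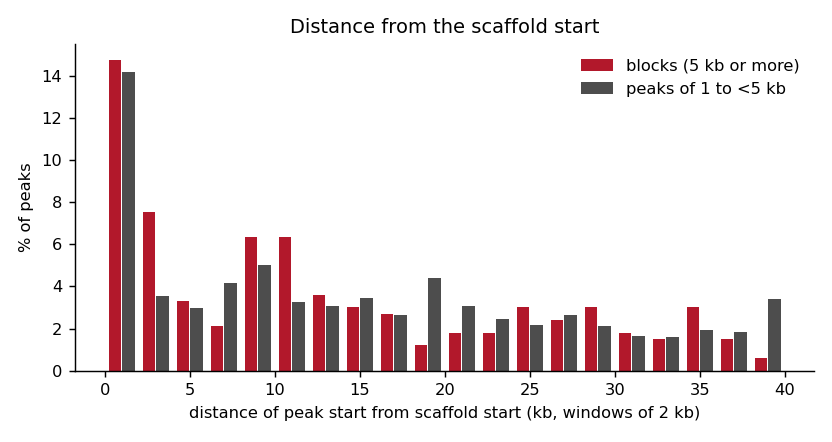
Share of peaks, in %, by distance of the peak start from the scaffold start in windows of 2 kb, for blocks (red) and peaks of 1 to under 5 kb (grey); starts beyond 40 kb are not drawn. The first window held 14.8% of the blocks and 14.2% of the shorter peaks, and the window from 2 to 4 kb held 7.53% and 3.53%. The windows from 8 to 12 kb held 6.33% each of the blocks, against 4.99% and 3.27%.

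Blocks were the last peak on their scaffold in 119 cases, or 35.8% (30.7 to 41.3%), against 29.0% (27.5 to 30.6%) of the peaks of 1 to under 5 kb and 25.8% (22.8 to 29.0%) of those of 2 to under 5 kb, and the first peak in 104 cases (31.3%), against 29.2% and 25.6%. Over all peaks both shares were 34.4%, so that the blocks were near the whole list in both. The median block took up 14.9% of the span of its scaffold, against 3.59%, in which the length itself enters. At least 50% of the span was taken up by 48 blocks (14.5%), against 4.21% of the peaks of 1 to under 5 kb and 1.88% of all peaks. At least 90% was taken up by 12 blocks (3.61%), against 1.64% and 0.758%. The length enters these shares too. The second limit was chosen after the values had been seen. Of these 12 blocks, 10 were 8 kb or longer, and 11 were the only peak on their scaffold. The span of a solitary peak is its own end, so such a peak reaches 90% when it starts near the scaffold start. The scaffold itself may extend further. The longest of the 12 were scaffold273783 at 399 to 20193 (fold 4.38), scaffold27591 at 4 to 15197 (24.7) and scaffold47409 at 4 to 13388 (28.0). The strongest was scaffold169153 at 519 to 10701, with a fold of 70.5 and a variation of 23.4%. Scaffold27591 and scaffold47409 were far more uneven, with a variation of 78.9% and 98.5%. None of the blocks of 6.0 to 6.4 kb belonged to this set, and their median start was at 23330 bp.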

How the data were processed

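The 3 hemocyte libraries form 1 group by their tissue label. According to the study's methods and the submitters' processing notes, Trim Galore was used for trimming, Bowtie2 for alignment to the species' own genome, samtools for removal of duplicates and MACS2 for broad peaks of the merged libraries. Tool settings, the treatment of reads with several alignments and the shift of insertion sites are not stated in the sources used here. Reads that align to several places, if kept, would add to the pileup of repeated sequences, and pooling lets the deepest library weigh most.

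The authors deposited 1 list, with the position of each peak as other columns, a fold enrichment as a linear ratio, the −log10 of a p-value and the −log10 of a q-value, all pooled over the libraries. Its display score was not used. The study lists sequencing totals per library, which were not used here because the pooled list does not separate the libraries. The precision follows from the fragment overlap given in the report. Starts are given counting from 1.

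Background and pileup were derived from fold and −log10 p under a Poisson distribution with a pseudocount of 1. The closest whole pileup missed the observed −log10 p by 1.2e-05. The ratio of observed −log10 p to that at the mean fold fell below 1 by more than 0.1% for 0 of 89155 peaks. A higher local background would raise this ratio too, so it cannot show whether all peaks had the same background. That 1 background held for all peaks was assumed, and the fragment overlaps, counting errors and evenness values rest on this. Background recovery, the ratio and the neighbour counts were tested on simulated data. Python 3.11.15, numpy 2.4.6, pandas 2.3.3 and scipy 1.17.1 were used. No comparison was tested, since there are no replicate values. Named blocks are the 5 longest, the 5 strongest, the 5 weakest, all that share a scaffold, the 3 on each side of the length limit, 3 with the most flanking peaks (the third tied with others), and the 3 strongest and 3 weakest of 6.0 to 6.4 kb. Others were chosen after their values were seen. The blocks, comparisons and naming rules were chosen with earlier results of these data known. Alternatives concerned length limits, thresholds on −log10 q and fold, merging, flank distance and scaffold span.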

Additional observations from a re-analysis of the deposited data

How the results depend on the processing

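Of 60 alternative values for 8 results, 45 stayed within the 95% interval of the value given above (for the number of blocks, within 1.5 times) and 15 did not. The 45 include the alternatives that changed only the comparison to peaks of 2 to under 5 kb. These left the value of the blocks unchanged by definition and could not move. A length limit of 6000 bp left 213 blocks, and without the class of 6.0 to 6.4 kb the median length was 5956 bp. When peaks with a −log10 q below 5 were left out, 22.4% of blocks were alone on their scaffold (19.3% of the peaks of 1 to under 5 kb), 67.1% had a flanking peak (68.9%) and the median fold of flanking peaks was 6.15 (6.03). With a fold of at least 4, these values were 24.0% (21.3%), 64.9% (66.3%) and 6.71 (6.62). On spans of 20 kb or more, 3.66% were alone (4.06%), 86.2% had a flanking peak (85.7%) and 4.47% started in the first 1 kb (6.4%). Flanking peaks were found for 54.2% within 5 kb (57.9%), 85.5% within 50 kb (89.3%) and, for starts at 20 kb or later, 85.3% (85.6%). The first 5 kb held 24.1% of starts (19.4%). The order of blocks and shorter peaks was thus opposite to that given above for the shares alone and with a flanking peak on spans of 20 kb or more, for starts in the first 5 kb, and for starts in the first 1 kb without the class of 6.0 to 6.4 kb (11.6% and 11.4%). For the fold of flanking peaks, those that lie in the same length class were left out here, and the medians were then 4.11 and 3.91. With them kept, an alternative chosen after seeing the data, the medians were 4.13 and 4.01. The comparison with peaks of 2 to under 5 kb was also chosen after seeing the data. With it, the shares alone differed more (13.6% and 6.84%), as did those with a flanking peak (78.9% and 87.5%), and the shares starting in the first 1 kb differed less (8.43% and 8.86%). No library could be left out and no paired analysis was possible because the list holds pooled values only. Borders, local background and scaffold ends that lie beyond the last peak limit the evenness and position values.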
